A study of Mus musculus with 4 samples.

Results

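In dopaminergic neurons made from induced pluripotent stem cells (iPSC-DA neurons), 2730 CpG positions outside CpG clusters were methylated at 60% or more. The same positions were under 20% both in iPSCs and in primary mesodiencephalic dopaminergic (mdDA) neurons. The members were chosen by these levels. They are autosomal positions with at least 10 calls in each of the 3 libraries, and they lie outside CpG clusters, which are runs of 10 or more of these positions spaced by less than 100 bp. Of 726844 autosomal positions with that depth, 495474 lay in 16356 clusters and 231370 lay outside, and the members made up 1.18% of the latter. A total of 55534 positions outside clusters were under 20% in iPSCs and mdDA neurons, called low positions below, and 4.92% of them were members. The precursor library (NESTIN-GFP) was not used to choose them, and it was methylated at many of them, with a median of 53.2%.

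DNA methylation was measured by reduced representation bisulfite sequencing (RRBS), which reads CpGs near MspI sites (CCGG) after size selection of fragments from 150 to 450 bp. Data from 4 libraries were used, with 1 library per cell type, so that differences have no replicate check. The iPSCs carried the Pitx3 Gfp/+ reporter and had been made by retroviral reprogramming from embryonic fibroblasts of such mice. iPSC-DA neurons were Pitx3 Gfp/+ cells differentiated on MS5 stromal cells and sorted for GFP, and mdDA neurons were GFP-sorted from the ventral midbrain of Pitx3 Gfp/+ embryos at E14.5. NESTIN-GFP precursors came from another reporter line (Nestin Gfp/+) and were collected earlier in the same kind of differentiation. PITX3 is a transcription factor of mdDA neurons, so that GFP marks these cells, and NESTIN is an intermediate filament protein of neural precursors. In all Pitx3 Gfp/+ groups 1 allele of Pitx3 carries the reporter. Whether the sequenced iPSCs and iPSC-DA neurons came from the same clone, and whether the sorted neurons contained DNA of stromal cells, was not tested.

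Methylation of CpGs is set by the de novo methyltransferases DNMT3A and DNMT3B and copied at replication by DNMT1, and TET enzymes oxidise it. In mammalian genomes most CpGs outside CpG islands are methylated in somatic cells, while CpG-rich promoters and many enhancers in use stay low. A position outside CpG islands that is low in a neuron is therefore often of interest as a possible regulatory site. The clusters used here are runs of covered positions, and whether members lie in CpG islands was not tested. Bisulfite sequencing reads 5-methylcytosine and 5-hydroxymethylcytosine alike. The level of a position is a mean over the cells of a library, so that methylation in part of the cells and on part of the alleles cannot be told apart.

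The libraries held from 31419979 calls (NESTIN-GFP precursors) to 79648099 calls (iPSC-DA neurons). At the members, the median was 54 calls in iPSCs, 47 in iPSC-DA neurons, 51 in mdDA neurons and 13 in NESTIN-GFP precursors. Intervals given below are 95% Wilson intervals and cover counting error only, because reads were amplified by PCR and a read can give several linked calls. Intervals of shares count positions or clusters as independent, although neighbouring positions share reads. Positions are those of the files, whose chromosome lengths fit NCBIM37 (mm9). Genes and sequences at the members were not analysed here, for want of a reference in that build.

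The levels that chose the members were as follows. In iPSC-DA neurons they ranged from 60% to 100%, the median was 68.2%, and the quartiles were 63.5% and 76.9%. In iPSCs the median was 5.84%, and in mdDA neurons it was 7.14%, with highest levels of 19.85% and 19.93%. Most members thus sat just past the limit in iPSC-DA neurons. Of them, 56.6% were from 60% to under 70%, and 547 were at 80% or more. A total of 55 members were at 100% in iPSC-DA neurons, and 211 were at 0% both in iPSCs and in mdDA neurons. Among all low positions, the level in iPSC-DA neurons fell off almost steadily, with no separate group of fully methylated positions.

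**Figure D1:**
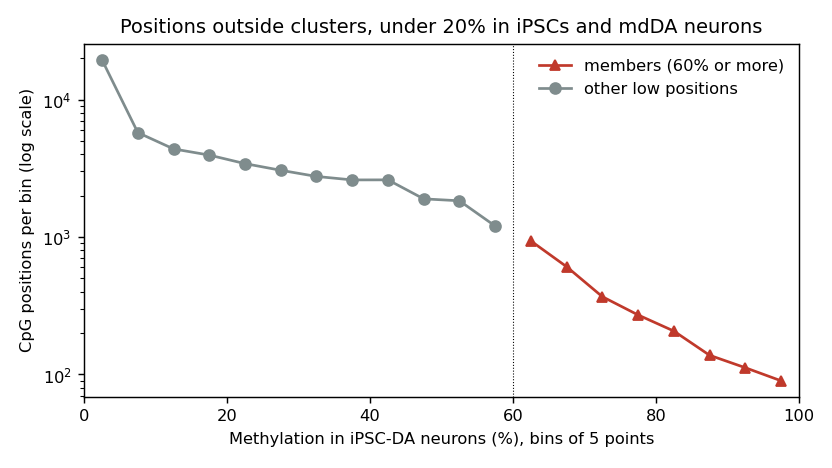
Number of low CpG positions (log scale) in each 5-point bin of methylation in iPSC-DA neurons (%), for positions outside clusters that were under 20% in iPSCs and mdDA neurons. Counts fell from 19378 positions under 5% to 936 members from 60% to 65% and 90 members at 95% or more, with no second peak.

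The limit of 60% cut through a continuous distribution. Between 60% and 62% lay 441 members, and between 58% and 60% lay 426 low positions that were not members. The 3 deepest members at the limit were at 60% with 295 calls (chromosome 8, 107794922), 230 calls (chromosome 10, 79653673) and 185 calls (chromosome 17, 23881659). The 3 low positions just outside were at 59.9% with 262, 197 and 187 calls. The members on the inner side had 1.05%, 8.18% and 10.1% in mdDA neurons, and the positions on the outer side 15.95%, 9.04% and 8.07%. Nothing but the limit separated these positions in iPSC-DA neurons.

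The counting error was large compared with the distance to the limits. The interval in iPSC-DA neurons lay above the intervals in iPSCs and mdDA neurons at 2676 of the members. However, its lower bound was at 60% or more at 841 members only, and the bounds of all 3 libraries were past their limits at 332 members (12.2%). Shallow positions were also more often members. Of low positions with 10 to 19 calls in iPSC-DA neurons 8.04% were members, and of those with at least 100 calls 3.27% were. For most members the interval in iPSC-DA neurons thus included levels under 60%.

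Many members lay near other members. When members less than 200 bp apart were joined, they formed 1544 loci. Of these, 946 held a single member, 304 held 2, 213 held 3 or 4, and 81 held at least 5. Members of a locus share reads and are not independent measurements. In the 81 large loci, 90% of the covered positions between the first and the last member were members, over a median length of 58 bp. That share is partly set by the choice, since these loci hold at least 5 members and begin and end at members. The grouping of other low positions was not computed for comparison. The pooled level of the members of the 81 large loci in iPSC-DA neurons had a median of 72.4%, a level that the rule bounds from below. The median range between the members of such a locus was 13.5 percentage points.

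The 6 loci with the most members are named A to F. Locus A, on chromosome 2 from 74529131 to 74529203, held 9 members and no other covered position. Its pooled level was 81.9% in iPSC-DA neurons (799 calls), 4.48% in mdDA neurons (1473 calls), 4.22% in iPSCs (925 calls) and 20.8% in NESTIN-GFP precursors (355 calls). Members of this locus ranged from 67.9% to 89.6% in iPSC-DA neurons, and none exceeded 15.7% in mdDA neurons. That the iPSC-DA library lay above iPSCs and mdDA neurons at each of the 9 positions follows from the rule. The pooled precursor level, which the rule did not use, was nearer to that of iPSCs than to that of iPSC-DA neurons. The nearest cluster, 585 bp away, was at 55.45% in iPSC-DA neurons, against 4.55% in mdDA neurons.

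Locus B, on chromosome 8 from 108042423 to 108042478, had the largest difference among the 6. Its 8 members were at 90.6% in iPSC-DA neurons (233 calls) and at 3.50% in mdDA neurons (429 calls), with 10.8% in iPSCs (332 calls). NESTIN-GFP precursors were at 14.8% (244 calls), with single positions from 4.55% to 43.75%. The locus was thus close to the iPSC level in precursors, although it was nearly fully methylated in iPSC-DA neurons. Its nearest cluster, 195 bp away, was at 24.3% in iPSC-DA neurons, far below the locus itself.

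The other loci had more methylation in precursors. Locus C, on chromosome 5 from 23990957 to 23991088, was at 79.4% in iPSC-DA neurons (204 calls), 4.74% in mdDA neurons (211 calls), 6.90% in iPSCs (261 calls) and 46.2% in precursors. It was made of a left group of 4 members at 20% in precursors, with 5 calls each, and a right group of 4 members from 42.9% to 80.95%, with 21 calls each. Locus D, on chromosome 5 from 113777889 to 113777941 and 38099 bp from a cluster, was at 72.4% in iPSC-DA neurons (446 calls), 2.52% in mdDA neurons (794 calls), 9.32% in iPSCs (719 calls) and 67.8% in precursors (687 calls). This locus had the most precursor calls of the 6, and its levels in precursors (54.8% to 80.9%) overlapped those in iPSC-DA neurons (61.2% to 80.95%) at its members.

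Locus E, on chromosome 15 from 102841185 to 102841273, was at 66.0% in iPSC-DA neurons (629 calls), 4.57% in mdDA neurons (394 calls) and 5.61% in iPSCs (606 calls). Its precursor level of 68.1% rests on 47 calls, and 5 of its 8 members had 4 precursor calls each. Locus F, on chromosome 10 from 43868353 to 43868419, was at 69.1% in iPSC-DA neurons (1882 calls), 10.7% in mdDA neurons (1609 calls), 7.87% in iPSCs (889 calls) and 58.4% in precursors (137 calls). Loci D and F were thus at or near the iPSC-DA level in precursors, whereas A and B were not. Locus E is less certain, since its members with at least 5 precursor calls were at 66.7%, 33.3% and 55.6% of 9 calls each.

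**Figure D2:**
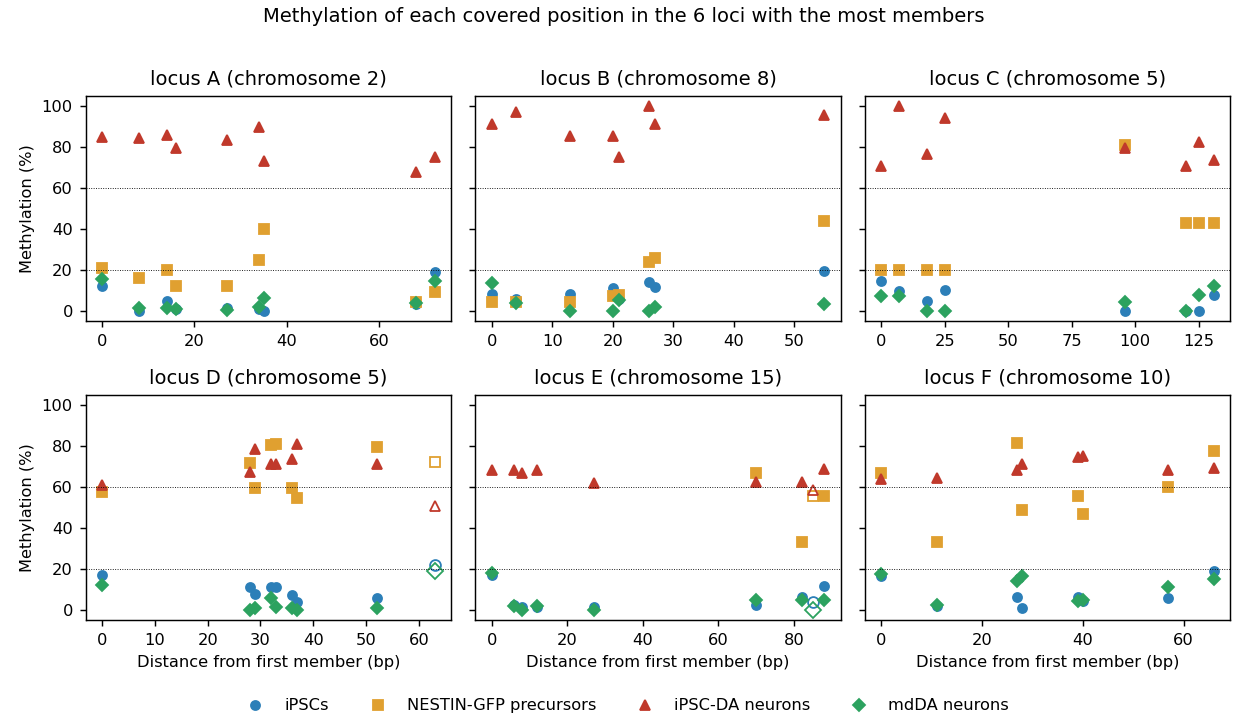
Methylation (%) of each covered position within 100 bp of loci A to F, against the distance from the first member (bp), in 4 libraries (filled, members; open, covered positions that are not members; dotted lines, 20% and 60%; precursors shown from 5 calls). By the rule the iPSC-DA points lie above the iPSC and mdDA points at each member. The precursor points of members lie from 4.55% to 43.75% in loci A and B and from 54.8% to 80.9% in locus D.

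Around the members, other positions were mostly intermediate or high in iPSC-DA neurons. The members lay in 1591 runs of neighbouring covered positions with gaps under 100 bp, and in 1492 of these runs other positions were covered too. Of the 5017 other positions in these runs, 2563 were low in iPSCs and mdDA neurons as well. The quartiles of their iPSC-DA level were 33.3% and 52.8%, around a median of 44.4%. Low positions in all other runs outside clusters had a median of 10% (50241 positions). Low positions next to members were thus mostly between the limits rather than unmethylated. They are below the upper limit by definition, since low positions at or above it are members. The runs were also picked by the iPSC-DA library for holding a member, and close neighbours can share its reads. The contrast with the other runs is therefore a description. The remaining 2454 positions were not low, and 2002 of them were at 20% or more in mdDA neurons. Their median was 68.8% in iPSC-DA neurons, near that of the members, with 26.8% in mdDA neurons and 21.7% in iPSCs.

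The other strand of a CpG is read from other DNA strands and gives a second look at the same CpG within a library. A covered position 1 bp away, taken as the other strand, was present for 240 members. Of these partners 128 were members themselves, which makes 64 CpGs with members on both strands. The other 112 partners had an iPSC-DA median of 54.4% (quartiles 44.6% and 59.45%) and medians of 9.94% in iPSCs and 8.71% in mdDA neurons. In total, 220 of the 240 partners were at 40% or more in iPSC-DA neurons and 5 were under 20%, while 20.6% of the partners of other low positions were at 40% or more. The strands of a CpG differed by a median of 10.7 percentage points in iPSC-DA neurons. The 128 partners that are members lie above 40% by the rule, and each of the 64 CpGs is counted from both strands. Only the other 112 partners are informative, and they were read in the library that chose the members. Most of these 112 were methylated too, often below the limit. As 8.79% of the members had a readable partner, nothing is read from this for the rest.

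NESTIN-GFP precursors had at least 5 calls at 2236 members, with a median of 17 calls. Their levels were spread over the whole range, with quartiles of 23.3% and 78.3% around the median of 53.2%. Of these members, 980 (43.8%, 95% CI 41.8% to 45.9%) were at 60% or more in precursors, 795 (35.55%) were from 20% to under 60%, and 461 (20.6%) were under 20%. A total of 156 were at 0% and 156 at 100%. No single level in precursors was thus typical of the members. The other low positions had a median of 20% in precursors (37746 positions), and 17.2% of them were at 60% or more (95% CI 16.8% to 17.55%). Within this set the precursor median was 12.5% at positions under 20% in iPSC-DA neurons (22962 positions). It was 31.8% at those from 20% to under 60% (14784 positions), of which 23.9% were at 60% or more in precursors.

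**Figure D3:**
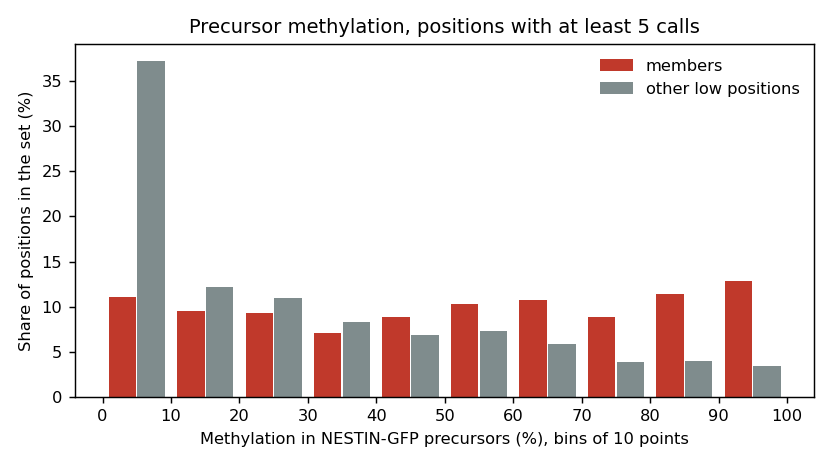
Share of positions (%) in each 10-point bin of methylation in NESTIN-GFP precursors (%), for 2236 members and 37746 other low positions with at least 5 precursor calls. Members are spread over all bins, from 7.02% to 12.9% of them in each, while 37.3% of the other low positions are under 10%.

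The precision of single positions was low. The precursor interval overlapped the iPSC-DA interval at 1425 of the 2236 members, lay below it at 726 and above it at 85. It lay above the iPSC interval at 1485. Over the 1293 loci with at least 5 precursor calls, which count each group of neighbours only once, the median pooled level was 57.1%. Of these loci 47.4% were at 60% or more and 15.2% under 20%. Among the large loci of at least 5 members, 20 were under 20%, 39 from 20% to under 60% and 20 at 60% or more, with a median of 40.5% over 79 loci.

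Precursors and iPSCs were compared at each position by Fisher's exact test (two-sided), adjusted by the Benjamini-Hochberg method over the 193442 positions outside clusters with at least 5 precursor calls. A position was called where the adjusted p-value was under 0.05 and the change was at least 20 percentage points. Precursors were called higher at 1510 of the 2236 members (67.5%). A lower call was impossible at members and other low positions, because the rule set them under 20% in iPSCs. Over all positions outside clusters 47.9% were called higher and 0.313% lower, and over all low positions 41.9% were called higher. Among members with at least 20 precursor calls the share was 75.8%, and among the other low positions of that depth it was 38.7%. The low level in iPSCs was a condition of the rule for members and other low positions alike, while the level in precursors was not. The test compares 2 libraries of different reporter lines rather than the cell types, and linked calls make its p-values too small.

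Members also had more residual methylation in iPSCs and mdDA neurons than the other low positions did, within the limit of 20%, and precursor levels moved with it. Where the iPSC and mdDA levels were both 0%, the median in precursors was 19.85% at 134 members and 5.56% at 4801 other low positions. Where the higher of both levels was from 10% to under 20%, the medians were 62.5% (1203 members) and 33.3% (10612 positions). The members were thus higher in precursors within each of these classes, by smaller steps at the lowest levels. The shares at 60% or more were 23.9% against 10.9% in the first class and 54.95% against 27.3% in the last. No test between these sets was made, since their positions are not independent.

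Single members showed both extremes. Among members with at least 20 precursor calls, the highest precursor levels were at chromosome 11, 115866888, with 100% of 64 calls (95% CI 94.3% to 100%), at chromosome 13, 54989251, with 100% of 51 calls, and at chromosome 11, 20695056, with 100% of 48 calls. In iPSC-DA neurons they were at 88.9% (27 calls), 60% (15 calls) and 64.5% (93 calls), and in mdDA neurons at 18.75%, 18.2% and 16.4%, close to the upper limit of the rule. These members, chosen for their precursor levels, thus read higher in precursors than in iPSC-DA neurons. At the first the intervals overlapped, since that in iPSC-DA neurons was 71.9% to 96.15%, and at the others they did not. The second member had only 16 calls in iPSCs and 11 in mdDA neurons.

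The lowest precursor levels were at a pair of members 8 bp apart on chromosome 7, at 100229402 and 100229410. Both were at 0% of 34 precursor calls (95% CI 0% to 10.2%) and 0% of 126 iPSC calls. They were at 71.1% (95% CI 63.4% to 77.8%) and 71.8% (95% CI 64.1% to 78.4%) of 149 calls in iPSC-DA neurons, and at 0.510% and 0% of 196 calls in mdDA neurons. At this pair, 147 bp and 155 bp from a cluster, the iPSC-DA library was thus far above the precursors. By the rule it was also above iPSCs and mdDA neurons. The third member of this kind, at chromosome 2, 9804299, was at 0% of 32 calls in precursors, 63.3% of 60 calls in iPSC-DA neurons, and 0.617% of 162 calls in mdDA neurons. Such members belong to the class under 20% in precursors, the smallest of the 3 classes above.

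By the definition of a cluster a member cannot be nearer than 100 bp to one. The distance to the nearest cluster ranged from 100 bp to 2761225 bp, with a median of 2134 bp and quartiles of 361.5 bp and 24887 bp. Within 2000 bp of a cluster lay 1360 members (49.8%, 95% CI 47.9% to 51.7%), compared with 56.05% of the other low positions and 21.5% of all positions outside clusters. Members, like other low positions, were thus found near clusters more often than the average position outside them. In the zone from 100 bp to under 500 bp, 3.57% of the low positions were members. In the zone from 500 bp to under 2000 bp the share was 6.93%, from 2000 bp to under 10000 bp 6.55%, and beyond 5.22%. The share was thus lowest next to the clusters. The distance depends on how a cluster is defined, and the median was 855 bp with runs of at least 5 positions and 10785 bp with runs of at least 20 positions, which also changed the number of members to 1005 and 5620.

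The members farthest from a cluster were at chromosome 14, 109313269, with 60% of 35 calls in iPSC-DA neurons, and at chromosome 10, 102490760 and 102490778, with 77.8% and 88.9% of 27 calls. They had at most 1 precursor call. The nearest were at chromosome 19, 45298552, and chromosome 1, 12980495, both 100 bp away, and at chromosome 3, 90268568, 101 bp away, with 61.98%, 61.4% and 67.3% in iPSC-DA neurons and 10.3%, 0% and 16.5% in mdDA neurons. The level in iPSC-DA neurons was bounded at 60% by the rule, and its medians ran from 66.7% in the nearest zone to 69.6% between 2000 bp and 10000 bp. Members with higher levels lay farther away, with a median distance of 1416 bp at 60% to under 70%, 2469 bp at 70% to under 80% and 5052 bp at 80% or more.

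The level in precursors moved with distance. The median over members was 43.2% from 100 bp to under 500 bp (657 members), 40% from 500 bp to under 2000 bp (421 members), 55.8% from 2000 bp to under 10000 bp (366 members) and 65.5% beyond (792 members). The other low positions went from 16.7% to 22.2% over the same zones. Residual methylation moved in the same direction, since the median of members in iPSCs was 4.24% in the nearest zone and 6.73% in the farthest. Where both iPSCs and mdDA neurons were under 5%, the precursor medians of members were 25% within 2000 bp (337 members) and 27.3% beyond (224 members). Where the higher of both was from 10% to under 20%, they were 51.7% (509 members) and 72.7% (694 members). The relation with distance was thus seen at members with residual methylation and was small at those nearly free of it.

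**Figure D4:**
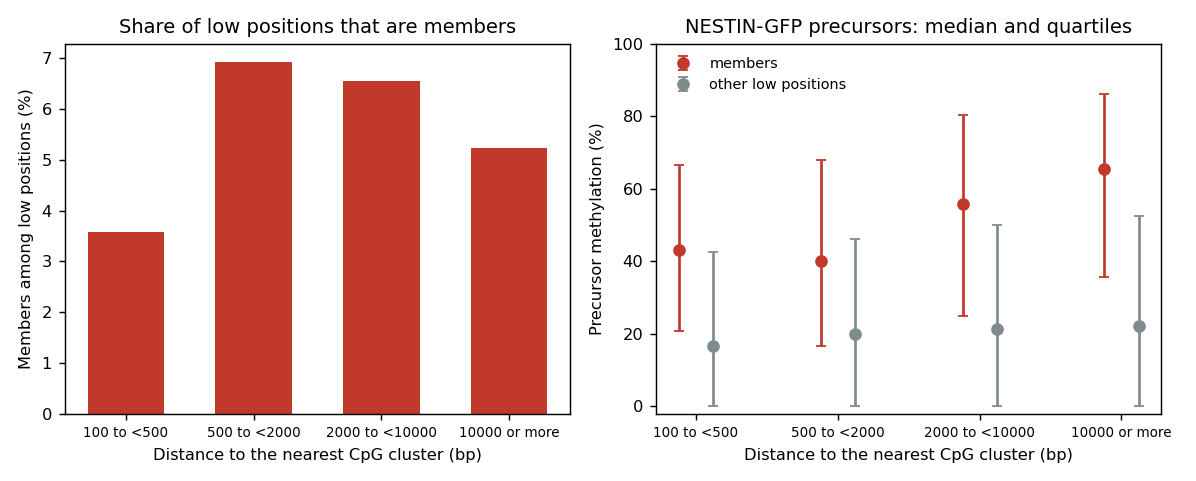
Left, share of low positions that are members (%), by distance to the nearest CpG cluster (bp). Right, median (points) and quartiles (bars) of methylation in NESTIN-GFP precursors (%) in the same zones for members and other low positions. The member median rises from 43.2% in the nearest zone to 65.5% in the farthest, and that of the other low positions from 16.7% to 22.2%.

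The clusters beside the members were mostly methylated in iPSC-DA neurons too, at intermediate levels. The 1360 members within 2000 bp of a cluster belonged to 665 clusters. The pooled level of these clusters had an iPSC-DA median of 40.2% (quartiles 31.2% and 47.2%), compared with 5.66% in mdDA neurons, 4.83% in iPSCs and 16.2% in NESTIN-GFP precursors. Of them 534 (80.3%, 95% CI 77.1% to 83.2%) were higher in iPSC-DA than in mdDA neurons by at least 20 percentage points, and 91 were under 20% in iPSC-DA neurons. The 5615 clusters that lay within 2000 bp of other low positions but of no member had a median of 6.93% in iPSC-DA neurons, and 25.3% of them were higher by at least 20 points. Few clusters beside members reached the level of the members, with 51 of 665 at 60% or more. These values come from the libraries that chose the members and are a description.

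**Figure D5:**
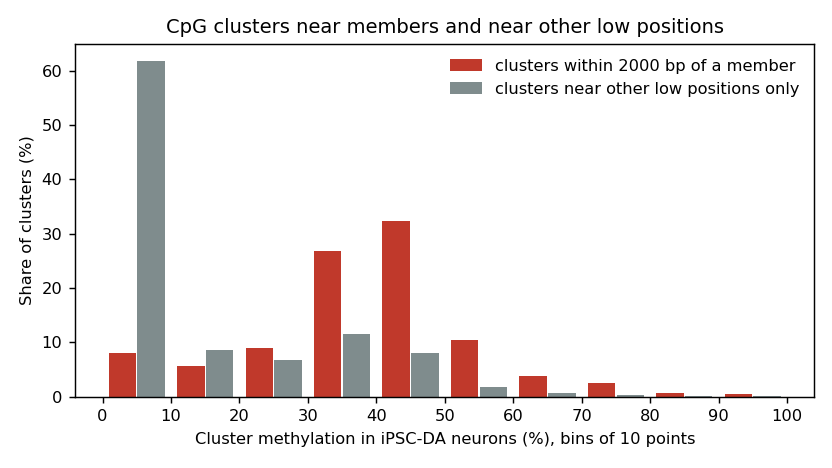
Share of CpG clusters (%) in each 10-point bin of pooled methylation in iPSC-DA neurons (%), for 665 clusters within 2000 bp of a member and 5615 clusters within 2000 bp of other low positions only. Clusters beside members peak from 40% to 50% (32.3% of them), while 61.8% of the other clusters are under 10%.

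Among positions outside clusters that were under 20% in iPSCs, 13622 were at 60% or more in iPSC-DA neurons. The members made up 20.04% of these. A further 8029 (58.9%) were at 60% or more in mdDA neurons too, and 2863 (21.0%) were in between. In precursors, the positions high in both kinds of neuron had a median of 95.95% (7571 positions), and 96.3% of them were at 60% or more, against 43.8% of the members. They also lay farther from clusters, with a median distance of 20159 bp. The positions in between in mdDA neurons had a precursor median of 84.6% (2521 positions), and 81.4% of them were at 60% or more. Most of these 13622 positions were thus at 60% or more in mdDA neurons as well, and the members were a smaller part. A further 19366 positions outside clusters, also under 20% in iPSCs, were from 20% to under 60% in iPSC-DA neurons. Those positions were under 20% in mdDA neurons, and their precursor median was 31.8% (14784 positions). The mirror image, low in iPSCs and iPSC-DA neurons and at 60% or more in mdDA neurons, was found at 74 positions. With a precursor median of 87.1% (56 positions), these were high in precursors as well.

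Members were found on all 19 autosomes, and their share of the low positions ranged from 3.14% on chromosome 7 (133 members) to 7.42% on chromosome 10 (191 members). Chromosome 8 followed with 7.28% (226 members) and chromosome 15 with 6.54% (160 members). Compared with the mdDA library and with the median autosome set to 0, the log2 ratio of calls was 0.41 for chromosome 10 in the iPSC-DA library. It was 0.13 for chromosomes 8, 15 and 19 and 0.14 for chromosome 17, where the shares of members were 7.28%, 6.54%, 6.07% and 4.21%. The part of these ratios in the shares was not tested. Without chromosome 10, an alternative chosen after seeing the data, 2539 members remained and made up 4.79% of the low positions.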

How the data were processed

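RRBS data of 4 libraries were used. Reads were trimmed by the authors with Trim Galore, and alignment and calling used Bareback with Bismark. The submitters' processing notes give versions 0.3.5 of Trim Galore and 0.10.1 of Bismark. The authors deposited, per cytosine position, the counts of methylated and unmethylated calls, not normalized, and the percent of methylated calls, which equals their ratio. Strands were kept apart and no depth filter had been applied. The genome build was not given in the sources used here. Positions on chromosome 1 reached 197192264, which fits NCBIM37 (mm9). Levels were recomputed from the counts.

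The members, the sets compared with them and the tests were chosen with earlier results of these data known. Members with gaps under 200 bp formed a locus. The text names the 6 loci with the most members (ties by the difference between mean iPSC-DA and mdDA levels), and the 3 members each with the highest and lowest precursor level (at least 20 calls), farthest from and nearest to a cluster, and on each side of the 60% limit. Chromosome 18 was left out of this naming. Classes of residual methylation, of depth and of neighbouring clusters were added after seeing the data.

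Precursors and iPSCs were compared with Fisher's exact test. On simulated calls at the real depths of 119917 positions, 191 of 200 positions raised by 60 points were recovered, and 2 unchanged positions were called. The simulated calls were independent, so this tests the code only. Python 3.11.15, numpy 2.4.6, pandas 2.3.3, scipy 1.17.1, numba 0.67.0 and matplotlib 3.10.9 were used. Alternatives are given in the closing section.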

Additional observations from a re-analysis of the deposited data

How the results depend on the processing

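The alternatives changed the number of members, their share of low positions, their levels in precursors, their distance to clusters and the number of loci, partly by construction, since a limit was changed. Of 114 values computed under alternatives, 50 stayed within the 95% interval of the share or median, or within 1.5 times the count, given in the report, and 64 did not. No paired analysis was possible because each cell type had 1 library, so that leaving out a library was not an option. The share of members on both strands has no value with strands merged.

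With at least 5 calls, 6.07% of low positions were members, 82.2% of members were at 20% or more and 48.7% at 60% or more in precursors, with a median of 57.9%. With at least 20 calls these values were 4.10%, 76.4%, 38.95% and 48.15%, and 46.2% of members lay within 2000 bp of a cluster, with a median distance of 3268 bp. With strands merged, 76.4% were at 20% or more and 41.6% at 60% or more in precursors.

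With runs of at least 5 positions there were 1005 members in 746 loci (5.71% of low positions), 84.6% at 20% or more and 54.2% at 60% or more in precursors, with a median of 62.5%. Of the 801 members tested, 598 (74.7%) were called higher in precursors than in iPSCs. Of all 1005 members, 58.3% lay within 2000 bp of a cluster (median 855 bp), and 0.995% had a member on the other strand. With runs of at least 20 positions there were 5620 members in 2461 loci (4.33%), 70.05% at 20% or more and 34.6% at 60% or more in precursors, with a median of 40%. Of the 4604 members tested, 2698 (58.6%) were called higher. Of all 5620 members, 34.2% lay within 2000 bp (median 10785 bp), and 10% had a member on the other strand. With gaps under 200 bp in clusters, 5.85% of low positions were members, 47.6% were at 60% or more in precursors (median 57.1%), and 39.98% lay within 2000 bp (median 5080 bp).

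With a low limit of 10% there were 1312 members in 772 loci (3.31%), 70.1% at 20% or more and 30.9% at 60% or more in precursors, with a median of 40%. Of the 1033 members tested, 631 (61.1%) were called higher. Of all 1312 members, 55.95% lay within 2000 bp (median 1178 bp), and 6.25% had a member on the other strand. With a high limit of 50% there were 5766 members in 2947 loci (10.38%), 37.7% at 60% or more in precursors (median 46.8%). Of these members, 54.25% lay within 2000 bp (median 1370 bp), and of the 4604 tested, 3004 (65.25%) were called higher. With a high limit of 80% there were 547 members in 343 loci (0.985%), 77.1% at 20% or more in precursors. Of the 462 tested, 297 (64.3%) were called higher. Of all 547 members, 41.9% lay within 2000 bp (median 5052 bp), and 5.85% had a member on the other strand. Within 1000 bp of a cluster lay 41.3% of the members.

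The share called higher in precursors ran from 58.6% to 74.7% of the members tested over the alternatives run for it. With at least 10 precursor calls it was 71.6%, against 50.25% of all positions outside clusters. With a rise of at least 10 points it was 70.7%, against 52.8%. For the other alternatives, which include both ends of the range, the share over all positions was not computed. Whether members stood apart there was not tested. Leaving out the deepest positions, or requiring 10 precursor calls for the values from precursors, moved no value computed beyond its 95% interval or 1.5 times its count. Chromosome 10 was left out only for the number of members, their share of low positions and their precursor levels (shares at 20% and 60% or more, and median), and none of these moved so far.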

Other observations

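Precursor levels did not rise steadily with the level of members in iPSC-DA neurons. The precursor median was 50% at members from 60% to under 70% in iPSC-DA neurons (1237 with at least 5 precursor calls), 59.8% at those from 70% to under 80% (537) and 50.4% at those at 80% or more (462). The most methylated class had fewer calls, with a median of 30 in iPSC-DA neurons compared with 55 in the lowest, and it lay farther from clusters, with a median distance of 5052 bp compared with 1416 bp.

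Sorted the other way, members under 20% in precursors (461, in 262 loci) and members at 60% or more (980, in 695 loci) had medians of 68.2% and 69.6% in iPSC-DA neurons, a level that the rule bounded at 60%, so that nothing is read from their closeness. Members under 20% in precursors had medians of 2.63% in iPSCs and 2.73% in mdDA neurons, compared with 8.33% and 10% at those at 60% or more. Of the first class 58.1% lay within 2000 bp of a cluster, and of the second 37.2%.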
